A study of Homo sapiens with 9 samples.

Results

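The genes described here are 10 enzymes of androgen metabolism, measured by RNA-seq in VCaP, an established line of prostate cancer cells. They were chosen by name, as the listed members of the UGT2B, SRD5A, HSD17B and AKR1C families, and all 10 were found among the 19918 gene symbols of the counts. The choice was made with earlier results of these data known, so the shares over all tested genes given below serve for scale only. The groups were VCaP cells transfected with si025, VCaP cells transfected with si033, and VCaP cells transfected with a control siRNA, with 3 libraries each. Both si025 and si033 target exon 1 of the lncRNA *IGF1R-AS1*, which is antisense to *IGF1R*, and all 3 groups received 100 pmol of siRNA by reverse transfection and were harvested 72 h later. The labels name no further treatment, and all cells came from 1 line. The study describes the 3 libraries of a group as biological replicates, without saying whether they were separate cultures, and the *p* values measure the spread between them. The level of the targeted transcript was not analysed here.

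The amount of active androgen inside a prostate cell is set by enzymes that make, interconvert and remove them. Steroid reductases of the SRD5A family convert testosterone to dihydrotestosterone, the most potent natural androgen. Hydroxysteroid dehydrogenases of the HSD17B and AKR1C families switch steroids between weak and active forms. UDP-glucuronosyltransferases of the UGT2B family attach glucuronic acid to androgens, after which the steroid is inactive and can leave the cell.

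The siRNA oligonucleotides of the study are shown because they are the perturbation on which every comparison rests. The labels do not state which of siRNA 1 and siRNA 2 is si025 and which is si033. Capitals mark the 7 bases that pair with the seed (bases 2 to 8) of the opposite strand.
negative control siRNA: uagcgacuaaaCACAUCAa
IGF1R-AS1 siRNA 1: agaaagcacugAAGACCUauu
IGF1R-AS1 siRNA 2: ccguauugcucAGUGGAAauu

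Library totals ranged from 11649811 to 28492259 counts, and 12810 genes passed the default expression filter of edgeR. Levels are given as CPM, a library's counts scaled to a common total with TMM factors. A gene is referred to as called where its adjusted *p* value was under 0.05 by the quasi-likelihood test of edgeR, adjusted over all 12810 genes. All 7 prostate luminal markers were tested and summed to 3130 to 3160 CPM in control libraries, 3870 to 3910 CPM with si025 (6 called higher and 0 lower) and 2700 to 2750 CPM with si033 (2 higher and 3 lower). Over all tested genes, 61.7% were called with si025 and 54.8% with si033. The 5 basal markers summed to 3.21 to 5.41 CPM in control libraries, 3.19 to 4.07 CPM with si025 and 1.65 to 2.24 CPM with si033, with *KRT5* at 0. Most of this was *KRT14*, which was called lower with si033 (-1.30, adjusted *p* = 2.81e-05, edgeR) and not called with si025 (-0.22, adjusted *p* = 0.337). The 4 leukocyte markers summed to at most 3.04 CPM with *CD3E* at 0, and *CD14* and *CD68* were called with neither siRNA. The 6 fibroblast markers summed to 16.7 to 19 CPM in control libraries, 36.7 to 44.1 CPM with si025 and 8.90 to 11.5 CPM with si033, mostly as *LUM*, while *COL1A2* had at most 1 count. The 6 hepatocyte markers summed to 214 to 228 CPM in control libraries, 180 to 186 CPM with si025 and 43.9 to 48.9 CPM with si033, mostly as *ALB*, while *CYP3A4* was at 0 and *HNF4A* had at most 1 count. Of the 3 hepatocyte markers tested, 2 were called higher and 1 lower with si025, and 0 higher and 2 lower with si033. With si025 *ALB* fell (-0.32, adjusted *p* = 1.83e-06, edgeR), whereas *TTR* (0.59, adjusted *p* = 0.000455) and *SERPINA1* (0.90, adjusted *p* = 0.0374, at most 21 counts) rose. The part of these marker levels in the results was not tested. All cells came from 1 line, so the marker sums do not count cells of other types. In these bulk samples, fewer cells holding a transcript and less of it per cell cannot be told apart.

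Of the 10 enzymes, 9 passed the filter and *UGT2B28* did not. With si025 all 9 were called, 8 lower and 1 higher, where 61.7% of all tested genes were called, 28.8% lower and 32.9% higher. With si033 6 were called, 3 lower and 3 higher, where 54.8% of all tested genes were called, 27.8% lower and 26.9% higher. The libraries did not overlap with control for 8 of the 9 enzymes with si025 and for 5 of 9 with si033, where this held for 65.7% and 59.5% of all tested genes. The median log2 fold change of the 9 enzymes was -0.63 with si025 and -0.03 with si033, beside 0.02 and 0.00 over all tested genes. Directly compared, si025 and si033 differed in 7 of the 9 enzymes, 6 lower and 1 higher with si025, where 60.9% of all tested genes differed, 29.7% lower and 31.2% higher. In that comparison the libraries of 8 enzymes did not overlap, as for 62.6% of all tested genes. Since the contrasts against control share the control libraries, the values with the siRNAs are given side by side.

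**Figure D1:**
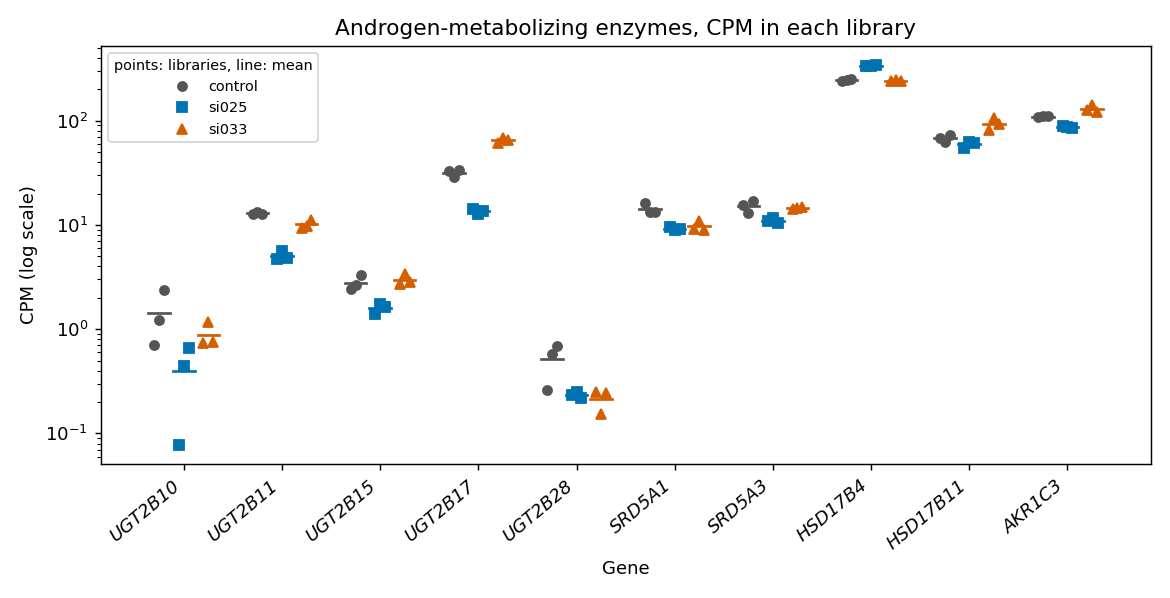
Each point is the CPM of 1 enzyme gene in 1 library on a log axis, with control in grey circles, si025 in blue squares and si033 in orange triangles, and the line is the mean of 3 libraries. *UGT2B17* separates into 3 levels, with means of 13.5 CPM (si025), 31.8 CPM (control) and 65.4 CPM (si033). *UGT2B10* and *UGT2B28* lie at or under 2.39 CPM, with wide scatter between the control libraries.

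In control cells the levels spanned a wide range. Per kilobase of exon, *HSD17B4* was highest at 83.7 ± 2.50 CPM per kilobase (SD, n = 3), followed by *AKR1C3* (55.4 ± 0.881), *HSD17B11* (35.4 ± 2.62) and *UGT2B17* (15.3 ± 1.14). Lower levels were found for *UGT2B11* (6.57 ± 0.193 CPM per kilobase), *SRD5A1* (4.74 ± 0.599), *SRD5A3* (3.50 ± 0.450) and *UGT2B15* (1.24 ± 0.192). The lowest were *UGT2B10* (0.518 ± 0.311 CPM per kilobase) and *UGT2B28* (0.269 ± 0.118), and they were the only neighbours in this order whose control libraries overlapped. The enzymes that interconvert androgens were thus read more often than the reductases and the glucuronosyltransferases.

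The 5 UGT2B genes lie in 1 cluster on chromosome 4 (hg38), between 68537184 and 69295050. *UGT2B17* spans 68537184 to 68568527 on the minus strand, *UGT2B15* 68646597 to 68670776 on the minus strand and *UGT2B10* 68815981 to 68832038 on the plus strand. *UGT2B11* spans 69200317 to 69224983 on the minus strand and *UGT2B28* 69280429 to 69295050 on the plus strand. The coding sequences fall into a pair of near-identical groups. *UGT2B15* and *UGT2B17* are identical at 96.5% of 1590 coding bases, and *UGT2B11* and *UGT2B28* at 97.0%, whereas *UGT2B11* and *UGT2B17* share 85.0%.

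The stretch of 60 coding bases in which *UGT2B17* and *UGT2B15* differ most, bases 242 to 301 of both coding sequences, is shown. Capitals mark the 9 bases that differ. Elsewhere the longest run without a difference was 199 bases.
UGT2B17: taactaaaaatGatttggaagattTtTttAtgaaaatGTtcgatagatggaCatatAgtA
UGT2B15: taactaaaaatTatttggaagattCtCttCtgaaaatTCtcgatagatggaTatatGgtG

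Read pairs that map equally well to several places were not counted, so the exons of each gene were compared with the rest of hg38. Of the words of 100 bases within its exons, 90.5% occurred only in the gene for *UGT2B17*, 87.3% for *UGT2B11*, 95.2% for *UGT2B28* and 92.9% for *AKR1C3*. For *UGT2B15* the share was 17% and for *UGT2B10* it was 0, because 83.0% and 100% of their words also lie on alternate contigs, which are further versions of a region supplied with the assembly. All exon words of *SRD5A1*, *SRD5A3*, *HSD17B4* and *HSD17B11* were found only in the gene at this word length. The sources used here do not give whether the alignment index held the alternate contigs. *TUBB*, a widely expressed tubulin gene, and *HSD17B8* are also carried in full on such contigs and stood at 0 counts in all 9 libraries (these 2 genes were chosen after their values had been seen). *UGT2B10*, carried in full as well, was not at 0 and held from 1 (si025) to 62 (control) counts per library. The levels of *UGT2B10* and *UGT2B15* are therefore less certain than those of the other enzymes, and the length of the reads is not given in the sources used here.

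**Figure D2:**
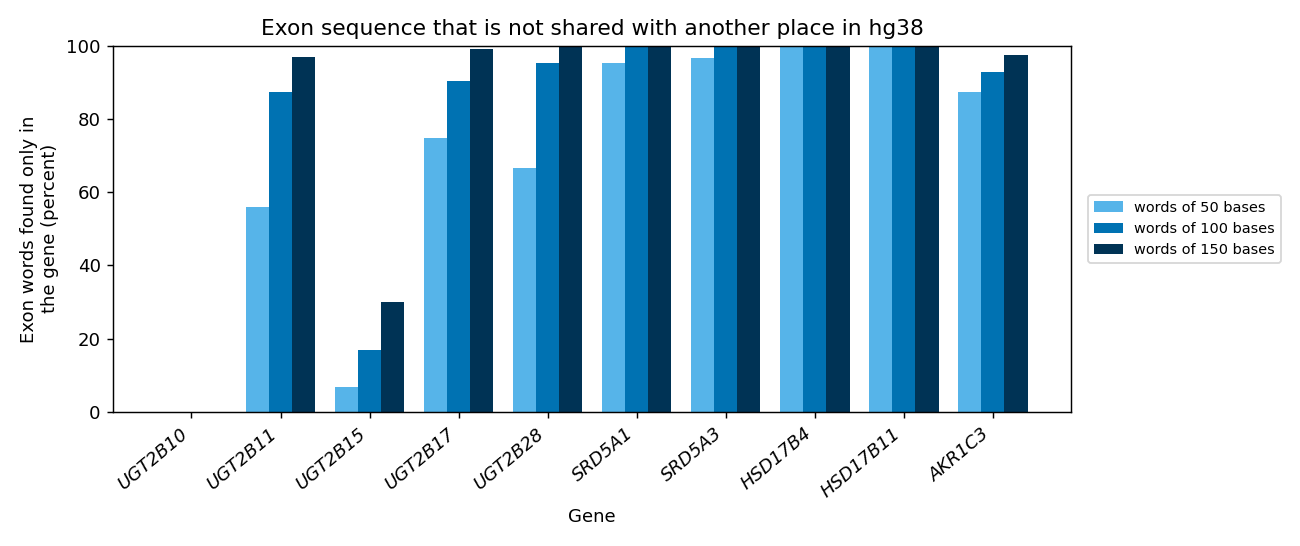
Bars give the percent of exon words of 50, 100 and 150 bases that occur in hg38 only within the gene itself, with alternate contigs searched too. *UGT2B10* has no bar because its share is 0 at each word length, *UGT2B15* stays at 6.87% to 29.9%, and the other 8 genes lie between 55.9% and 100%.

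Among the glucuronosyltransferases, *UGT2B17* moved in opposite directions with the siRNAs. *UGT2B17* encodes a main enzyme that conjugates testosterone, dihydrotestosterone and their metabolites. It was measured at 32.6, 29.1 and 33.7 CPM in the control libraries, 14.1, 12.7 and 13.7 CPM with si025, and 61.6, 68.8 and 65.8 CPM with si033. All 3 si025 libraries lay below, and all 3 si033 libraries above, every control library. Compared with control, si025 gave a 2.38-fold lower level (log2 fold change -1.25, SE 0.08, adjusted *p* = 1.96e-12, edgeR) and si033 a 2.05-fold higher level (1.03, SE 0.06, adjusted *p* = 2.58e-12). Between the siRNAs it differed by 4.87-fold (-2.28, SE 0.07, adjusted *p* = 6.65e-18), and in this contrast 99.3% of tested genes had a smaller absolute change.

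*UGT2B15* encodes the closest relative of UGT2B17, with a similar preference for androgens. Its levels were 2.44, 2.68 and 3.28 CPM in control libraries, 1.40, 1.74 and 1.64 CPM with si025, and 2.72, 3.40 and 2.86 CPM with si033. The si025 libraries lay below all others, whereas the control and si033 libraries overlapped. It was 1.79-fold lower with si025 (-0.84, SE 0.20, adjusted *p* = 0.000761, edgeR). With si033 it was not called (0.04, 95% interval -0.33 to 0.41, adjusted *p* = 0.950), so that interval lies below the increase of *UGT2B17*. The counts behind it were few, between 18 and 85 per library.

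*UGT2B11*, for which little activity on androgens is known, was lower with both siRNAs. It stood at 12.8, 13.3 and 12.6 CPM in control libraries, 4.75, 5.66 and 4.86 CPM with si025, and 9.39, 9.83 and 11.1 CPM with si033. The groups did not overlap, with si025 lowest and control highest. The decrease was 2.52-fold with si025 (-1.33, SE 0.11, adjusted *p* = 4.53e-10, edgeR) and 1.25-fold with si033 (-0.32, SE 0.10, adjusted *p* = 0.00894). The siRNAs differed by -1.01 (SE 0.11, adjusted *p* = 6.95e-08).

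*UGT2B10*, known for conjugating amines rather than androgens, was read only rarely. Its counts were 8, 17 and 62 in control libraries, 1, 9 and 15 with si025, and 9, 15 and 22 with si033. In CPM the control libraries ranged from 0.698 to 2.39, the si025 libraries from 0.0779 to 0.663 and the si033 libraries from 0.742 to 1.16. It was called lower with si025 (-1.86, SE 0.42, adjusted *p* = 0.000494, edgeR) and with si033 (-0.93, SE 0.37, adjusted *p* = 0.0368), although control and si033 overlapped. Without control replicate 3, which held 62 counts, neither was called (-1.14, adjusted *p* = 0.0509, and -0.19, adjusted *p* = 0.739). Between the siRNAs it was not called (-0.93, 95% interval -1.92 to 0.05, adjusted *p* = 0.0945).

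*UGT2B28*, which can conjugate androgens, had counts of 3, 8 and 18 in control libraries, 3, 5 and 5 with si025, and 3, 2 and 7 with si033. At these counts it did not pass the filter, so the main fit gives no fold change for it. Its si025 and si033 libraries lay at 0.155 to 0.248 CPM and its control libraries at 0.262 to 0.695 CPM.

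Summed over the 5 genes, the UGT2B level in control cells was 49.5 ± 2.90 CPM (SD, n = 3), against 20.8 ± 0.267 CPM for si025 and 79.6 ± 4.41 CPM for si033. *UGT2B17* made up 62.0% to 66.7% of the UGT2B counts in control libraries and 61.1% to 68.6% with si025, so its share overlapped between these groups while the sum fell to under the control level in every library. With si033 the share was 81.4% to 82.5%, above all other libraries. The higher sum with si033 was therefore carried by *UGT2B17*, and the ratio of *UGT2B17* to *UGT2B11* counts was 5.90 to 7 there, against 2.18 to 2.67 in control libraries and 2.25 to 2.97 with si025.

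**Figure D3:**
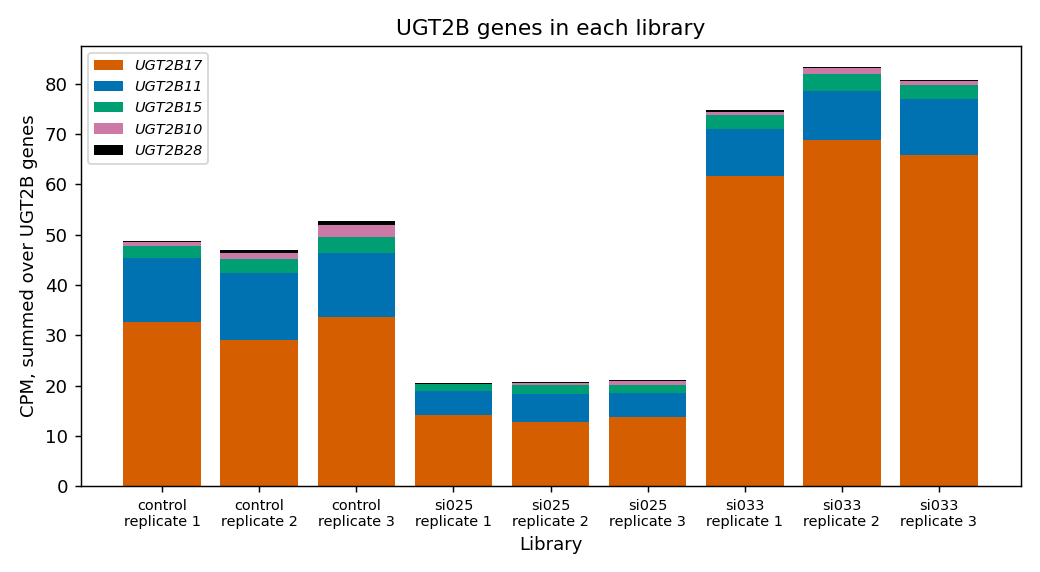
Bars give the CPM of the 5 UGT2B genes stacked for each of the 9 libraries. The si025 bars end between 20.6 and 21.1 CPM, the control bars between 47.0 and 52.6 CPM and the si033 bars between 74.7 and 83.3 CPM, and most of each bar is *UGT2B17*.

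Both steroid reductases were lower with si025, and 1 of them with si033. *SRD5A1* (chromosome 5, 6633322 to 6669562), the reductase that converts androstenedione and testosterone in many prostate tumours, was at 16.4, 13.3 and 13.3 CPM in control libraries. With si025 it was at 9.50, 8.88 and 9.06 CPM and with si033 at 9.23, 10.8 and 8.97 CPM. The 6 libraries with either siRNA lay below the lowest control library, and the si025 and si033 libraries overlapped. *SRD5A1* fell 1.55-fold with si025 (-0.63, SE 0.10, adjusted *p* = 1.45e-05, edgeR) and 1.48-fold with si033 (-0.56, SE 0.10, adjusted *p* = 8.29e-05). Between the siRNAs *SRD5A1* differed by -0.07, with a 95% interval of -0.30 to 0.16 (adjusted *p* = 0.604).

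*SRD5A3* (chromosome 4, 55346114 to 55373100) encodes a reductase that also makes dolichol for protein glycosylation. Its levels were 15.4, 13.0 and 16.8 CPM in control libraries, 10.9, 11.6 and 10.4 CPM with si025, and 14.1, 14.4 and 15 CPM with si033. Only the si025 libraries stood apart from control, at a log2 fold change of -0.48 (SE 0.09, adjusted *p* = 0.000134, edgeR). With si033 *SRD5A3* was not called (-0.07, 95% interval -0.26 to 0.12, adjusted *p* = 0.559), and the siRNAs differed by -0.41 (SE 0.09, adjusted *p* = 0.000684).

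**Figure D4:**
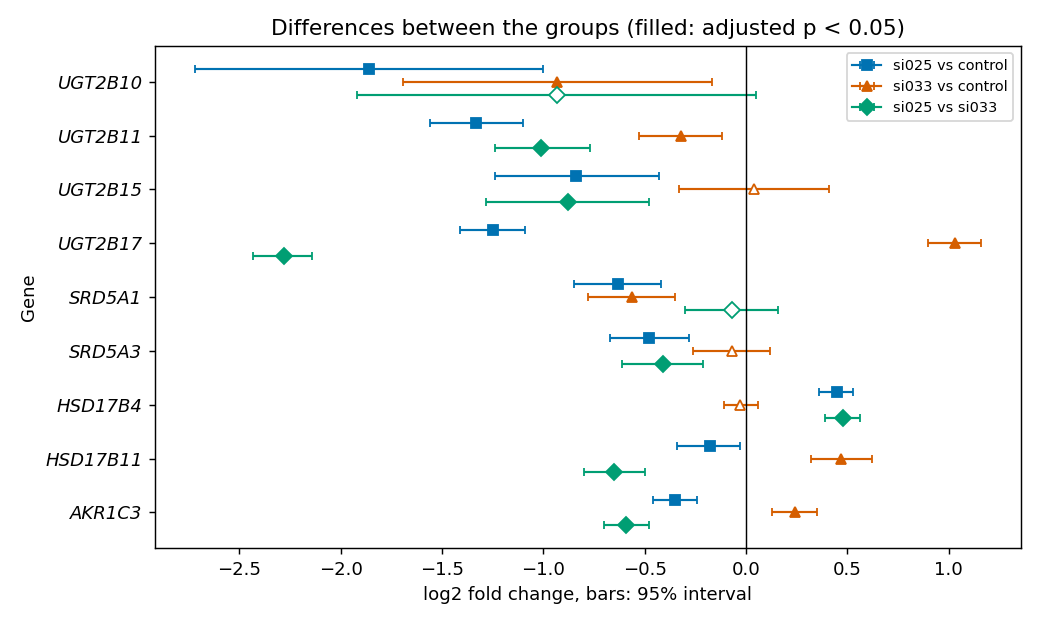
Points give the log2 fold change of the 9 tested enzymes for si025 against control (blue squares), si033 against control (orange triangles) and si025 against si033 (green diamonds), with 95% intervals as bars and filled points for adjusted *p* values under 0.05. *UGT2B17* has the widest separation, from -1.25 to 1.03, and *HSD17B4* is the 1 gene to the right of 0 with si025.

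*HSD17B4* (chromosome 5, 119452443 to 119542335) encodes a peroxisomal enzyme that oxidizes estradiol and active androgens to weaker forms and also acts in fatty acid oxidation. It was the 1 enzyme called higher with si025. Its levels were 239, 245 and 254 CPM in control libraries, 332, 333 and 343 CPM with si025, and 238, 246 and 242 CPM with si033. The si025 libraries lay above all others, while the control and si033 libraries overlapped. The increase with si025 was 1.37-fold (0.45, SE 0.04, adjusted *p* = 2.10e-09, edgeR). With si033 the change was -0.03 (95% interval -0.11 to 0.06, adjusted *p* = 0.619), an interval that excludes an increase of the size seen with si025.

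*HSD17B11* (chromosome 4, 87336522 to 87391303) encodes a dehydrogenase of lipid droplets that can oxidize androstanediol. Its levels were 68.6, 62.3 and 72.2 CPM in control libraries, 54.7, 62.7 and 61.5 CPM with si025, and 81.9, 106 and 93.7 CPM with si033. The si033 libraries lay above all others, and the si025 and control libraries overlapped. *HSD17B11* was 1.38-fold higher with si033 (0.47, SE 0.07, adjusted *p* = 1.09e-05, edgeR). With si025 it was called lower by a small margin (-0.18, SE 0.08, adjusted *p* = 0.0401), a call that was lost without control replicate 1 (adjusted *p* = 0.0898), control replicate 3 (0.223), si025 replicate 1 (0.166) or si025 replicate 3 (0.0510), and with upper quartile scaling (0.0638). The ratio of *HSD17B4* to *HSD17B11* counts was 3.48 to 3.93 in control libraries, 5.32 to 6.06 with si025 and 2.31 to 2.91 with si033.

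*AKR1C3* (chromosome 10, 5048766 to 5107686) encodes the enzyme that reduces androstenedione to testosterone in prostate cancer cells. It was measured at 108, 111 and 110 CPM in control libraries, 88.4, 86.5 and 84.3 CPM with si025, and 128, 141 and 122 CPM with si033. The groups did not overlap, and their order was that of *UGT2B17*, with si025 lowest and si033 highest. The decrease with si025 was 1.27-fold (-0.35, SE 0.05, adjusted *p* = 5.35e-06, edgeR) and the increase with si033 was 1.18-fold (0.24, SE 0.05, adjusted *p* = 0.000458). The siRNAs differed by -0.59 (SE 0.05, adjusted *p* = 1.45e-09).

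In all, 3 enzymes (*UGT2B17*, *HSD17B11* and *AKR1C3*) were called lower with si025 and higher with si033, where 3.01% of all tested genes showed that pattern. Another 3 (*UGT2B10*, *UGT2B11* and *SRD5A1*) were called lower with both, where 14.6% of all tested genes were. *UGT2B15* and *SRD5A3* were called lower with si025 alone and *HSD17B4* higher with si025 alone, and each of them differed between the siRNAs. Without *UGT2B10* and *UGT2B15*, the genes with the fewest exon words of their own, all 7 remaining enzymes were called with si025 (6 lower and 1 higher) and 5 of 7 with si033 (2 lower and 3 higher). The shares called over all tested genes were 61.7% with si025 and 54.8% with si033.

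Over the 9 libraries, log2 CPM of *UGT2B17* correlated with *AKR1C3* at r = 0.97 and with *HSD17B11* at r = 0.90, and with its relative *UGT2B15* at r = 0.88. *HSD17B4* ran opposite, at r = -0.94 with *UGT2B11* and -0.90 with *UGT2B17*. *SRD5A1* stood apart from *UGT2B17* (r = 0.16) and *HSD17B11* (r = -0.07). These values describe 9 libraries in 3 groups with shared depth differences and carry no *p* value. Outside the list, tested genes among the 3 with the profiles most like *UGT2B17* were *SLC44A1* (r = 0.995) and *IFT52* (0.994), both with smaller changes (-0.43 and 0.33 for *SLC44A1* with si025 and si033). For *HSD17B4* they were *CTPS2* (0.996), *ANXA2* (0.994) and *NCALD* (0.994), for *SRD5A1* *ARMC4* (0.983), and for *AKR1C3* *PTGFRN* (0.993).

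An siRNA can lower transcripts that hold a match to its seed in the 3′ untranslated region (3′ UTR), so these regions of the 10 enzymes were searched for the words matching either strand of the 3 oligonucleotides. The word AGTGGAA, which matches the strand opposite to the listed siRNA 2, lay in 4 of the 10 enzymes (*UGT2B10*, *UGT2B15*, *UGT2B17* and *SRD5A1*) and in 14.3% of 19516 genes with a 3′ UTR. The word TGCTTTC, for siRNA 1 as listed, lay in 3 enzymes (*UGT2B10*, *SRD5A1* and *SRD5A3*) and in 18.2% of genes, and AAGACCT, for its opposite strand, in *SRD5A3* and in 10.2% of genes. The word CACATCA, for the opposite strand of the negative control siRNA, lay in none of the 10 enzymes and in 10.3% of genes. These shares take no account of 3′ UTR length, which ran from 183 bases (*AKR1C3*) to 6118 bases (*SRD5A1*) in the enzymes. The sites in the most alike pair are shown with the word in capitals. Both begin at base 18 of the 3′ UTR, and as *UGT2B15* and *UGT2B17* are near-identical copies, their sites are not independent matches. With si025 *UGT2B17* (-1.25) and *UGT2B15* (-0.84) were both called lower, and with si033 *UGT2B17* was called higher (1.03) and *UGT2B15* was not called (0.04). Which of these siRNAs is siRNA 2 is not stated, and the part of the seed in these values was not tested.
UGT2B17 site: aaagcctgaAGTGGAAtgaccaaaa
UGT2B15 site: aaagcctgaAGTGGAAtgactgaaa

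The wider pathway was described by gene lists from which the 10 enzymes were left out. For every list below, the share of all tested genes called was 61.7% with si025 (32.9% higher and 28.8% lower). With si033 that share was 54.8% (26.9% higher and 27.8% lower). Of 12 genes of steroid synthesis, 6 were tested. *CYP11A1*, *HSD3B2* and *CYP19A1*, which encode the first enzyme of the pathway, a 3-beta-hydroxysteroid dehydrogenase and aromatase, had 0 counts in every library. *CYP17A1*, whose enzyme makes the androgen precursors, had at most 2 counts. Among the tested ones, 3 were called with si025 (2 higher and 1 lower) and 4 with si033 (3 higher and 1 lower). *CYB5A*, encoding the cytochrome b5 that assists CYP17A1, averaged 86.7 CPM in control libraries and 40.1 CPM with si033 (-1.12, SE 0.06, adjusted *p* = 9.92e-14, edgeR), and was not called with si025 (0.11, adjusted *p* = 0.0566). *TSPO*, a mitochondrial protein linked to cholesterol import, fell with si025 (-1.02, adjusted *p* = 2.25e-12) and not with si033 (-0.04, adjusted *p* = 0.564).

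Of 10 other genes of the HSD17B family, 6 were tested, 3 called with si025 (1 higher and 2 lower) and 3 with si033 (all lower). *HSD17B6*, encoding an oxidase that can restore dihydrotestosterone from androstanediol, averaged 16.8 CPM in control libraries and fell with si033 (-1.23, adjusted *p* = 4.69e-09), while with si025 it was at 14.2 CPM and not called (-0.21, adjusted *p* = 0.0748). *HSD17B14* rose with si025 from 1.46 to 4.56 CPM (1.62, adjusted *p* = 7.50e-08). *HSD17B2* fell with si033 (-1.87, adjusted *p* = 0.00171) from a level of 0.637 CPM. Among 4 tested genes of other 3-alpha enzymes, the AKR1C3 relatives *AKR1C1* (1.19, adjusted *p* = 3.77e-07) and *AKR1C2* (0.77, adjusted *p* = 0.0260) rose with si033, as *AKR1C3* did. With si025, where *AKR1C3* fell, neither *AKR1C1* (-0.11, adjusted *p* = 0.579) nor *AKR1C2* (0.38, adjusted *p* = 0.28) was called. Of the 4 genes, 2 were called with si025 (1 higher and 1 lower) and 2 with si033 (both higher). Those called with si025 were *RDH16* (1.36, adjusted *p* = 0.00086, edgeR, at most 50 counts per library) and *RDH5* (-0.74, adjusted *p* = 5.12e-05). *AKR1C2* held at most 40 counts per library. Only 74.7% and 75.8% of the words of 100 bases of *AKR1C1* and *AKR1C2* are their own, so reads of these genes are less certainly assigned. Of the other reductases *SRD5A2*, the main reductase of the normal prostate, had at most 4 counts, and *TECR*, the 1 gene tested, was called with neither siRNA (0.10 and -0.03).

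Of 16 other UGT genes 4 were tested, 2 called with si025 (1 higher and 1 lower) and 3 with si033 (all lower). *UGT2B4* (-0.30, adjusted *p* = 0.00421) and *UGT2B7* (-0.49, adjusted *p* = 0.0238), neighbours in sequence of the UGT2B enzymes above, fell with si033, where *UGT2B17* rose. With si025 they were at 0.05 (adjusted *p* = 0.581) and -0.13 (adjusted *p* = 0.540) and not called, where the 4 tested UGT2B enzymes of the list fell. The UGT1A genes share their last exons and had at most 17 counts each, which limits what can be said of them.

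UDP-glucuronic acid, the second substrate of every glucuronosyltransferase, is made by the enzyme encoded by *UGDH*. *UGDH* fell from 255 CPM in control cells to 198 CPM with si025 (-0.36, SE 0.05, adjusted *p* = 1.64e-06, edgeR) and 108 CPM with si033 (-1.23, adjusted *p* = 5.09e-15). The decrease was larger with si033, with a difference of 0.87 between the siRNAs (adjusted *p* = 1.32e-12). *UGDH* was thus lowest in the libraries where *UGT2B17* was highest. Of the 7 genes of glucuronate supply and release, 6 were called with each siRNA, 4 higher and 2 lower, among them the UDP-sugar transporter *SLC35D1*, which rose with both (0.95 and 0.34, adjusted *p* = 3.98e-10 and 0.00151).

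Sulfation is the other conjugation of androgens and their precursors. Of 13 genes 10 were tested, 6 called with si025 (4 higher and 2 lower) and 5 with si033 (1 higher and 4 lower). *PAPSS2*, encoding an enzyme that makes the sulfate donor used on the precursor DHEA, averaged 24.4 CPM in control libraries, 48.3 CPM with si025 (0.98, adjusted *p* = 6.45e-12) and 4.39 CPM with si033 (-2.44, adjusted *p* = 9.77e-16). It moved opposite to *UGT2B17* with each siRNA. *SUMF2* fell with si025 (-0.85, adjusted *p* = 3.76e-12) and was not called with si033 (-0.05, adjusted *p* = 0.386). Of 6 steroid uptake genes 2 were tested, 1 called higher and 1 lower with each siRNA. *SLCO3A1* rose with both (2.30 and 2.40, adjusted *p* = 0.00105 and 0.000781) from a mean of 0.123 CPM and at most 25 counts per library, and *SLCO4A1* fell with both (-0.27 and -0.38, adjusted *p* = 0.00129 and 5.58e-05).

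Genes that androgens are known to activate were described too, and 14 were tested. Of these, 11 were called with si025 (8 higher, 3 lower), where 61.7% of all tested genes were called, 32.9% higher and 28.8% lower. With si033 12 were called (3 higher, 9 lower), where 54.8% of all tested genes were called, 26.9% higher and 27.8% lower. *KLK3*, encoding prostate-specific antigen, rose with both (1.51 and 0.51, adjusted *p* = 2.10e-13 and 3.76e-05), *ACPP* rose chiefly with si025 (1.18 and 0.12, adjusted *p* = 4.45e-16 and 0.0243), and *TRPM8* fell chiefly with si033 (-0.20 and -1.08, adjusted *p* = 0.000466 and 7.30e-15). In the direct contrast si025 was above si033 for 11 of the 14 genes and below it for 1, where 31.2% and 29.7% of all tested genes were.

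**Figure D5:**
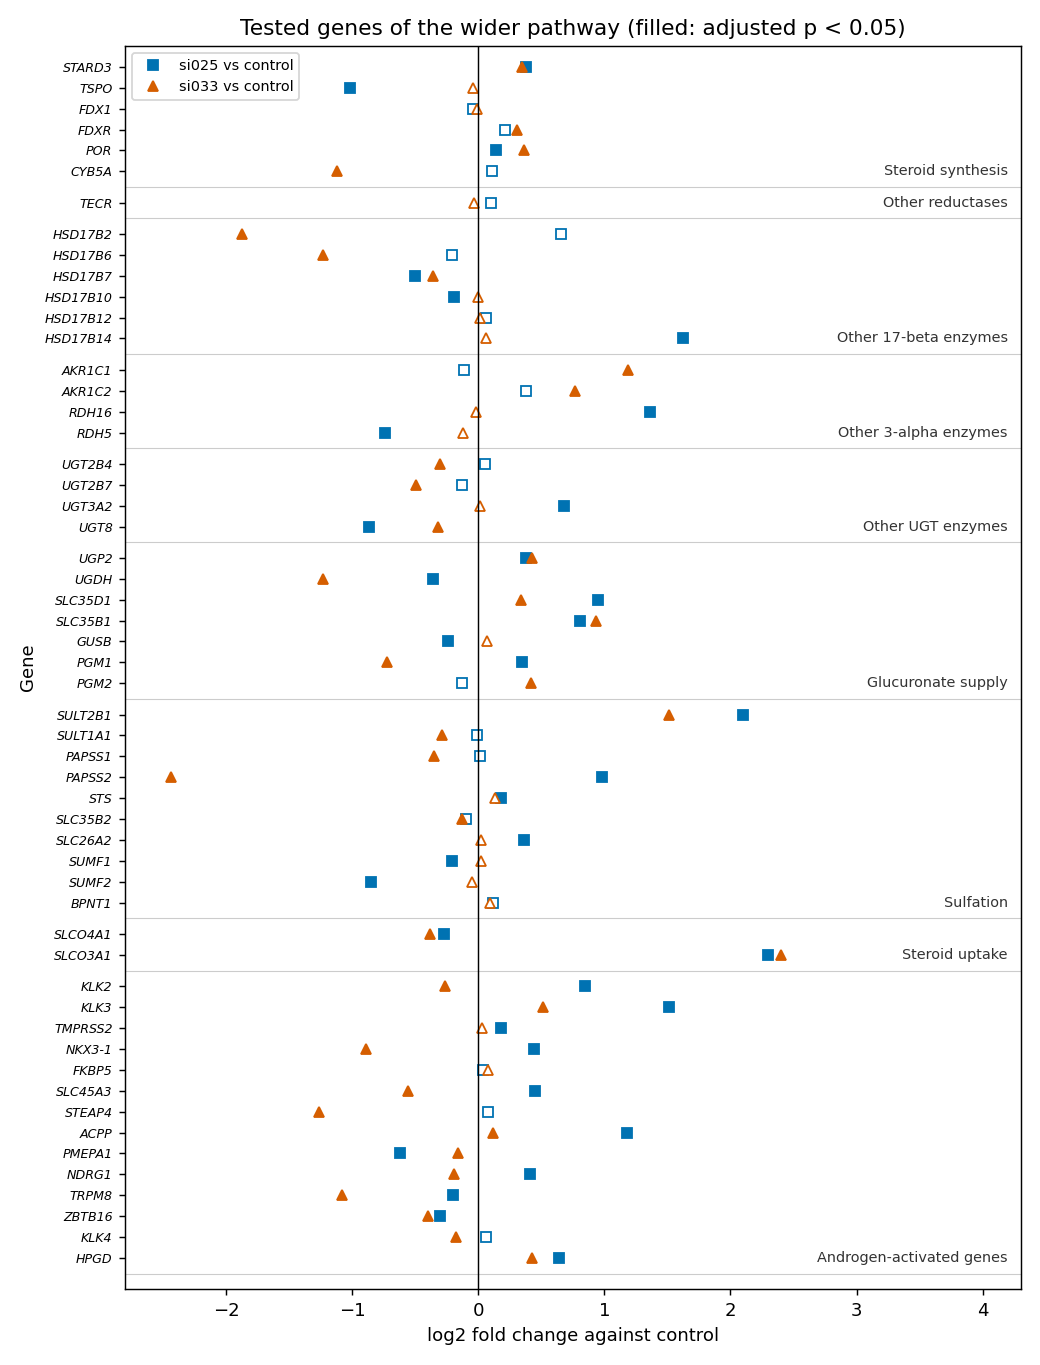
Points give the log2 fold change against control of the tested genes in 9 lists around androgen metabolism, for si025 (blue squares) and si033 (orange triangles), filled where the adjusted *p* value was under 0.05. The siRNAs lie furthest apart for *PAPSS2* (0.98 and -2.44), *HSD17B2* (0.66 and -1.87) and *HSD17B14* (1.62 and 0.06).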

How the data were processed

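Per the labels and the methods of the study, the authors aligned paired-end reads of stranded total RNA libraries to hg38 with HISAT2 2.1.0. According to the file headers, the raw counts deposited by the authors come from featureCounts 1.5.2, run in paired, reversely stranded mode on RefSeq exons grouped by gene symbol, whereas the methods name GENCODE. Multi-mapping pairs were not counted, and the deposited exon length served for levels per kilobase.

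Counts of all 9 libraries were fitted with edgeR 4.0.16 in R 4.3.3 by the quasi-likelihood test, with TMM scaling, the default filter, 3 group means and Benjamini-Hochberg adjustment over 12810 genes. For low counts this test bounds *p* values by a Poisson test. Standard errors were derived from the F statistic, and intervals are 95% and approximate. Alternatives were other scalings and filters, DESeq2 1.42.0, limma 3.58.1, 2-group fits, a replicate block and leaving out each library. All 10 enzymes were named, and from each list at most 4 called genes by size of change, with further genes of a list given by their levels or counts. Genes at or near 0, such as *CYP17A1*, were named after their values were seen, and some genes that the rule picks are not reported here. The enzymes and lists were chosen with earlier results of these data known.

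Exon words came from hg38 and coding and 3′ UTR sequences from canonical GENCODE version 44 transcripts, aligned with Biopython 1.88. Replicates differed by more than counting noise.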

Additional observations from a re-analysis of the deposited data

Results flagged for a closer look

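Of the 9 tested enzymes, 7 were marked because their response differed between si025 and si033 in the direct contrast of edgeR. The log2 differences, si025 minus si033, were -2.28 for *UGT2B17*, -1.01 for *UGT2B11*, -0.88 for *UGT2B15*, -0.65 for *HSD17B11*, -0.59 for *AKR1C3*, -0.41 for *SRD5A3* and 0.48 for *HSD17B4*, and in each of them the libraries of the siRNAs did not overlap. Over all tested genes 60.9% differed, and the libraries of the siRNAs did not overlap for 62.6%. The differences of *UGT2B17*, *HSD17B11* and *AKR1C3* join changes of opposite sign against control, of which the decrease of *HSD17B11* with si025 was lost in 5 of 17 alternatives.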

How the results depend on the processing

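The 9 tested enzymes were refitted under 17 alternatives in 3 contrasts, giving 459 values, of which 445 kept their direction and side of the threshold or stayed uncalled, 11 lost a call and 3 gained one. The changes concerned *UGT2B10* and *HSD17B11* alone, and the cause was not tested. *UGT2B10* with si025 lost its call in 1 alternative and with si033 in 5, among them DESeq2 (adjusted *p* = 0.160) and limma-voom (0.104), and its change with si033 ranged from -1.16 to -0.19. It gained a call between the siRNAs in 3 alternatives, up to a difference of -1.49 without si025 replicate 3. The replicate block changed no call of the enzymes, for example -1.25 for *UGT2B17* with si025, and libraries with 1 number in the titles were not paired, since their deviations correlated at -0.021 to 0.073. Without a filter *UGT2B28* was called lower with si025 (-1.22, adjusted *p* = 0.0491) and si033 (-1.30, 0.0443). Those calls lie close to the threshold and rest on 2 to 18 counts per library. Leaving out *UGT2B10* and *UGT2B15* was chosen after seeing the data. Low counts limit *UGT2B10*, *UGT2B15* and *UGT2B28*, which held at most 85 counts per library, and the cause of these counts was not tested.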
